A study of Homo sapiens with 18 samples.

Results

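The antiapoptotic genes described here are 9 genes whose products block programmed cell death. They are the BCL2 family members MCL1, BCL2L1, BCL2L2, BCL2 and BCL2A1, the inhibitor of apoptosis (IAP) genes XIAP, BIRC2 and BIRC3, and CFLAR, the gene of FLIP. They were taken by their gene symbol, 9 of the 26485 symbols counted in each library, from a list made with earlier results of these data known. Poly(A) RNA was sequenced from 3 established human lines of pancreatic ductal adenocarcinoma, namely BxPC3, Panc327 and SUIT2, each exposed for 6 h to 100 nM THZ1 or to DMSO, the vehicle. THZ1 binds covalently to CDK7, a kinase of RNA polymerase II and of the cell cycle, and also to the related CDK12 and CDK13. The study deals with SIRT6, with the integrated stress response and with how cells resist an inhibition of transcription, and its design text asks what THZ1 does to expression in these lines. The 6 groups are BxPC3 with THZ1, BxPC3 with DMSO, Panc327 with THZ1, Panc327 with DMSO, SUIT2 with THZ1 and SUIT2 with DMSO, with 3 libraries in each. The labels give no genetic change in any of them. Each condition was studied at a single dose and time.

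In the mitochondrial pathway of apoptosis, BH3-only proteins free BAX and BAK to open the outer mitochondrial membrane, and the antiapoptotic BCL2 proteins hold both kinds of protein in check. Cytochrome c released through that opening assembles the apoptosome and starts the caspases, which XIAP binds and blocks. In the death receptor pathway FLIP occupies the adaptor complex in which caspase-8 is activated, while the ubiquitin ligases encoded by BIRC2 and BIRC3 act on the signalling complex below the TNF receptor. MCL1 is known for a messenger RNA and a protein that both turn over fast, and pancreatic cancer cells are known to rely on MCL1 and on BCL-XL, the main product of BCL2L1.

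Gene counts per library ranged from 5626146 to 8631273, and 14011 genes had enough counts to be tested. Nothing in the labels says whether the libraries of a group were separate cultures, so their spread, and every p-value, may be technical only. The share of records aligned to several places moved with THZ1 in a pair of lines: it averaged 22.8% with THZ1 and 12.8% with DMSO in BxPC3, 52.8% and 13.6% in Panc327, and 12.9% and 13.2% in SUIT2. Its part in the results below was not tested. The summed level of 6 epithelial markers was 4680 to 10100 CPM (counts scaled by library size and TMM) in every library, although KRT7 averaged 14.9 CPM with THZ1 and 13.6 CPM with DMSO in SUIT2, against 2190 CPM and 1550 CPM in BxPC3. CDH1 was also low in SUIT2, at 28.8 CPM with THZ1 and 27.3 CPM with DMSO, against 1120 CPM and 678 CPM in BxPC3. Among markers of other cell types, the summed level of 5 leukocyte markers averaged 286 CPM with THZ1 and 278 CPM with DMSO in SUIT2, nearly all of it LYZ, and at most 5.87 CPM in any group of the other lines. The sum of 4 fibroblast markers averaged 70.2 CPM with THZ1 and 49.5 CPM with DMSO in Panc327, and 18 CPM and 9.86 CPM in BxPC3, nearly all of it COL1A1. The sum of 3 endothelial markers averaged 17.8 CPM with THZ1 and 12.7 CPM with DMSO in Panc327, mostly VWF, and that of 3 acinar markers was at most 2.49 CPM in any library. The leukocyte marker PTPRC averaged at most 0.0658 CPM and the fibroblast marker DCN 0 CPM in every group. The part of these markers in the results below was not tested. In bulk RNA of this kind, fewer cells of a type and less RNA per cell cannot be told apart.

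THZ1 lowered most of the antiapoptotic genes in BxPC3 and Panc327 and fewer of them in SUIT2. A gene was called changed when its Benjamini-Hochberg adjusted p in edgeR's quasi-likelihood test was under 0.05. All log2 fold changes are THZ1 over DMSO and relative to the median gene, and they are given with their standard error (SE). In BxPC3, 6 of 9 members fell, where 34.1% of all tested genes were called lower, and 1 member rose, where 35.2% of all genes were called higher. In Panc327, 5 of 9 members fell against a background of 37.8%, and 1 rose against a background of 35.6%. SUIT2 responded little as a whole: 3 of 9 members fell against a background of 7.64%, and 1 rose against a background of 6.95%. BCL2A1 was too low to be tested in any line, so each count rests on the other 8 members. The median log2 fold change over the 8 tested members was -0.49 in BxPC3, against 0.00 over all tested genes. It was -0.54 in Panc327 against -0.01 over all genes, and -0.08 in SUIT2 against 0.01. With library size as the only scaling, the median of all genes itself stood at -0.35 in BxPC3, -0.34 in Panc327 and 0.00 in SUIT2, and 26.8% and 31% of the calls in BxPC3 and Panc327 were higher, against 50.8% and 48.5% with TMM scaling. Values given below for that setting are not centred on the median gene. A fall of 2-fold or more was called for 1 member, BCL2 in BxPC3, against 15.1% of all genes in that line, and for 0 members in Panc327 and SUIT2, against 19% and 0.45%. Such a fall was called with library size alone for 3 members in BxPC3, BCL2 (-1.53), BCL2L2 (-1.27) and BIRC3 (-1.05), against 24.5% of all genes, and for 3 in Panc327, MCL1 (-1.02), BCL2 (-1.02) and BIRC3 (-1.18), against 26.5%. Without BxPC3 THZ1 replicate 1, BCL2 stood at -0.96 and the count in BxPC3 was 0, and BIRC3 in Panc327 passed 2-fold without DMSO replicate 3 (-1.01) or THZ1 replicate 2 (-1.27).

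**Figure D1:**
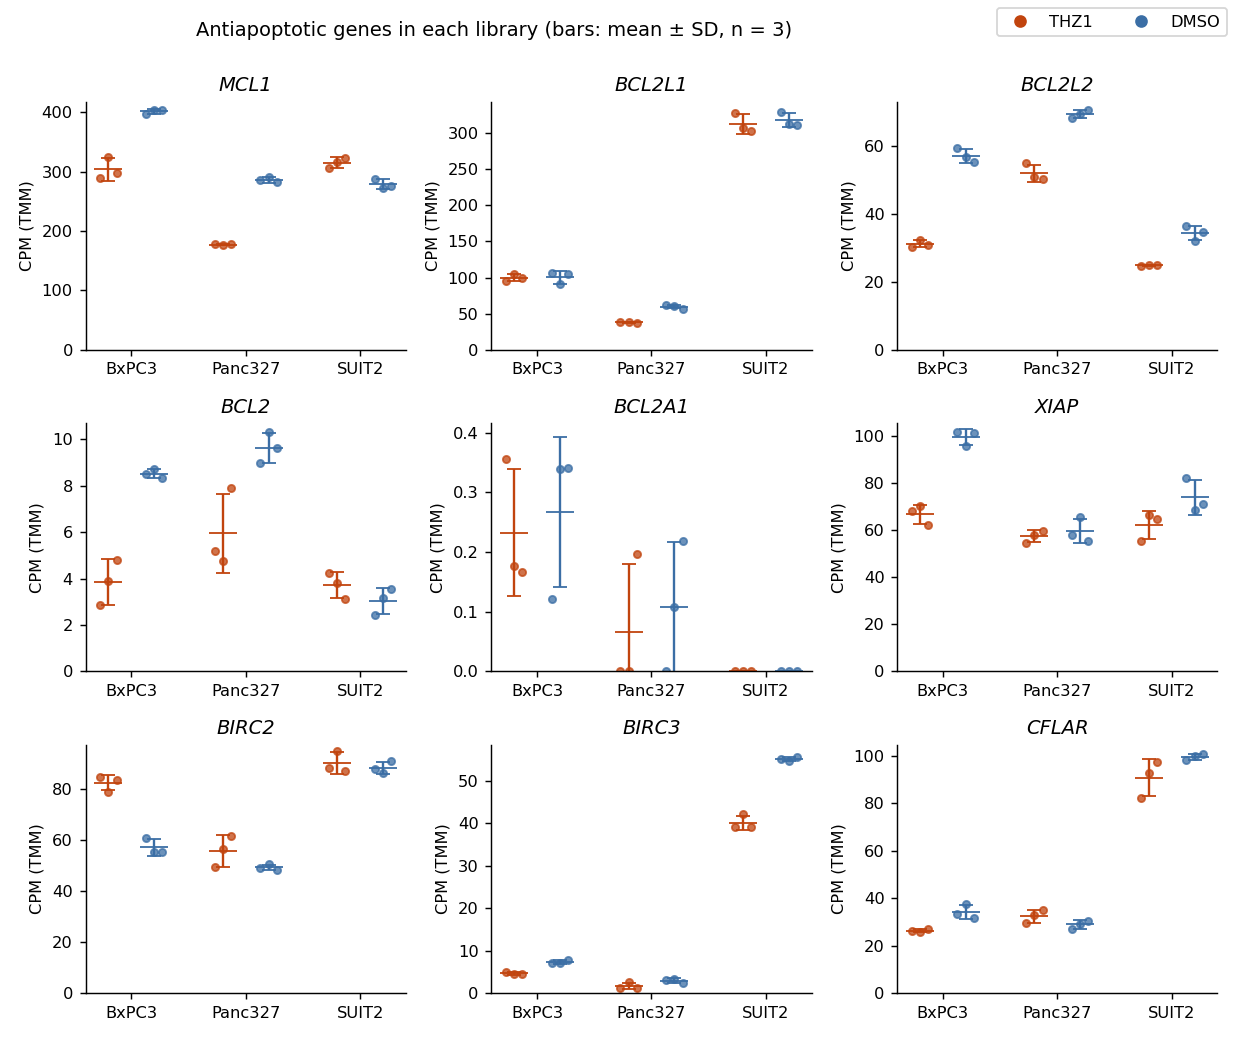
Level of each antiapoptotic gene in each library, in CPM after TMM scaling (vertical axes start at 0 and differ between panels), for BxPC3, Panc327 and SUIT2. Points are libraries with THZ1 (orange) or DMSO (blue), and bars are the mean ± SD of 3 libraries. MCL1 with THZ1 lies under all DMSO libraries in BxPC3 and Panc327 and over them in SUIT2, and BCL2A1 does not pass 0.36 CPM in any library.

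MCL1, which binds BAK and the BH3-only proteins NOXA and BIM, fell in BxPC3 and Panc327 and rose in SUIT2. The gene lies on chromosome 1 at 150574551 to 150579738 on the minus strand (GENCODE 29, GRCh38) and is short, with 3 exons in its longest coding transcript. In BxPC3, MCL1 was at 289, 326 and 297 CPM with THZ1 and at 397, 404 and 404 CPM with DMSO. In Panc327 it was at 179, 176 and 178 CPM with THZ1 and at 286, 291 and 282 CPM with DMSO. Every THZ1 library of these lines was under every DMSO library, and the log2 fold change was -0.40 (SE 0.04, edgeR adjusted p = 9.39e-15) in BxPC3 and -0.69 (SE 0.05, edgeR adjusted p = 3.49e-25) in Panc327. In SUIT2, MCL1 was at 306, 317 and 324 CPM with THZ1 and at 288, 273 and 276 CPM with DMSO. There the THZ1 libraries were all over the DMSO libraries, with a log2 fold change of 0.18 (SE 0.04, edgeR adjusted p = 0.00144). Among all tested genes the MCL1 value stood at percentile 32.9 in BxPC3, 27.8 in Panc327 and 82.6 in SUIT2, so its falls were not extreme for the lines in which they were seen.

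BCL2L1 was lowered in Panc327 and in neither of the other lines. The gene lies on chromosome 20 at 31664452 to 31723989 on the minus strand, and its counts pool BCL-XL with the shorter, death-promoting splice form BCL-XS. With THZ1 the Panc327 libraries were at 38.7, 37.9 and 37.3 CPM, and with DMSO at 61.5, 61.2 and 57.1 CPM. The groups were well apart (log2 fold change -0.66, SE 0.08, edgeR adjusted p = 7.25e-13). In BxPC3, BCL2L1 was at 95.5, 105 and 99.0 CPM with THZ1 and at 107, 90.5 and 104 CPM with DMSO. These values overlapped, and the log2 fold change of -0.01 had a 95% interval of -0.12 to 0.11; its sign turned under RLE scaling (0.03), and with library size as the only scaling it was -0.40 and called. In SUIT2, which held the most BCL2L1 RNA, it was at 328, 307 and 303 CPM with THZ1 and at 329, 313 and 312 CPM with DMSO. The interval there, -0.11 to 0.07 around a log2 fold change of -0.02, leaves room for only a small change in either direction, and the sign turned when 1 DMSO library was left out (0.0015 without replicate 1). The antisense RNA ABALON shares 1424 bases, 43.0% of the exon bases of BCL2L1, and since no strand setting is given, reads from that overlap cannot be told apart. ABALON averaged 8.55 CPM with THZ1 and 6.26 CPM with DMSO in BxPC3, 5.28 and 4 CPM in Panc327, and 24.0 and 20.1 CPM in SUIT2. How reads in the overlap were assigned is not given, so these levels do not show how far it affects the BCL2L1 counts.

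The 2 genes were also set against each other within each library, since the ratio of a pair of genes does not depend on how libraries are scaled. The log2 ratio of MCL1 counts to BCL2L1 counts in BxPC3 was 1.60, 1.63 and 1.58 with THZ1 and 1.90, 2.16 and 1.95 with DMSO. The THZ1 ratios were all lower, by 0.40 on average, and the exact 2-sided permutation p was 0.1, the smallest that 3 against 3 libraries can give. In Panc327, where both genes fell, the ratio averaged 2.22 ± 0.02 with THZ1 and 2.26 ± 0.05 with DMSO (SD, n = 3, exact permutation p = 0.5). In SUIT2 it was -0.10, 0.05 and 0.09 with THZ1 and -0.19, -0.20 and -0.18 with DMSO. The THZ1 ratios were all higher there, by 0.20 on average (exact permutation p = 0.1). The exact permutation test of 3 against 3 libraries cannot pass 0.05, and over the 6 ratio tests run, the Benjamini-Hochberg adjusted p was 0.12 where the exact permutation p was 0.1 and 0.5 in the case of MCL1 to BCL2L1 in Panc327.

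**Figure D2:**
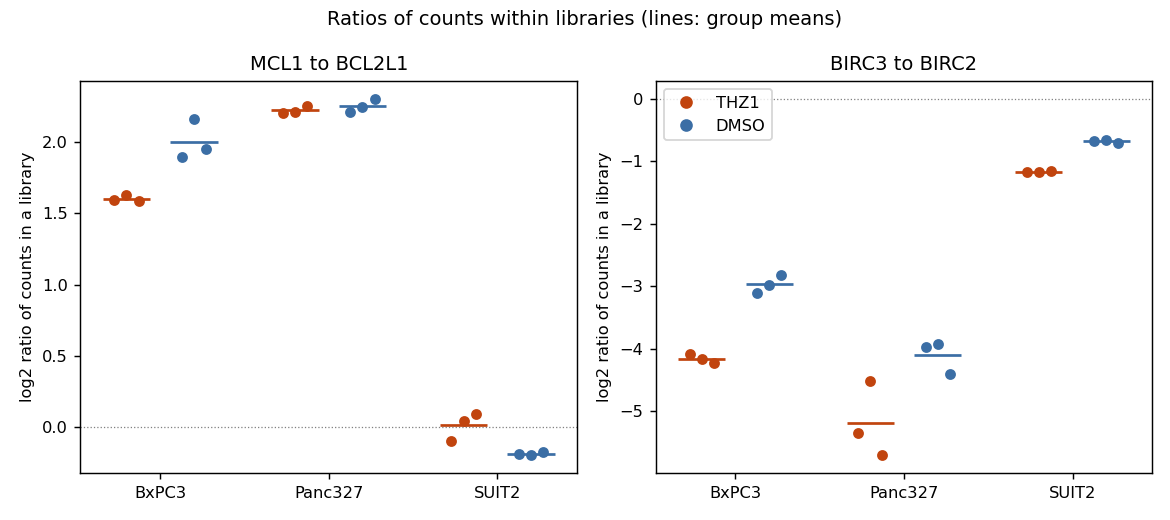
Log2 ratio of the counts of 2 genes in each library, MCL1 to BCL2L1 on the left and BIRC3 to BIRC2 on the right, for the 3 lines with THZ1 (orange) and DMSO (blue). Points are libraries and lines are means of 3 libraries. The BIRC3 to BIRC2 ratio is lower with THZ1 in every line, while the MCL1 to BCL2L1 ratio is lower in BxPC3, nearly level in Panc327 (2.22 against 2.26) and higher in SUIT2.

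BCL2L2, which encodes BCL-w, fell in all 3 lines. In BxPC3 it was at 30.4, 32.4 and 31.1 CPM with THZ1 and at 59.5, 56.8 and 55.3 CPM with DMSO. Panc327 had 55.0, 50.9 and 50.3 CPM with THZ1 and 68.5, 69.5 and 70.8 CPM with DMSO. SUIT2 had 24.8, 24.9 and 25.0 CPM with THZ1 and 36.4, 32.1 and 34.8 CPM with DMSO. In none of the lines did the groups overlap, and the log2 fold changes were -0.87 (SE 0.08), -0.42 (SE 0.07) and -0.47 (SE 0.08) in that order, with edgeR adjusted p of 7.01e-18, 9.37e-08 and 1.12e-05. In SUIT2 the value stood at percentile 7.78 of all tested genes, against percentiles 19.7 in BxPC3 and 35.7 in Panc327. BCL2L2 lies on chromosome 14 at 23298790 to 23311759 on the plus strand. The readthrough gene BCL2L2-PABPN1 shares 19.4% of its exon bases and held at most 0.73 CPM in any library. PPP1R3E, on the other strand, shares 4.9% and held 1.76 to 8.15 CPM. How reads in these overlaps were assigned is not given, so the levels do not show how far the overlaps affect the BCL2L2 counts.

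BCL2, the founder of the family, was rare. It spans 197 kb of chromosome 18 (63123346 to 63320128, minus strand), and its libraries held 16 to 96 counts each. In BxPC3 it was at 2.85, 3.89 and 4.82 CPM with THZ1 and at 8.52, 8.71 and 8.31 CPM with DMSO. The Panc327 libraries were at 5.21, 4.76 and 7.89 CPM with THZ1 and at 8.98, 10.3 and 9.61 CPM with DMSO. The groups did not overlap in either line, and BCL2 fell by 1.13 on the log2 scale in BxPC3 (SE 0.20, edgeR adjusted p = 5.74e-07) and by 0.70 in Panc327 (SE 0.18, edgeR adjusted p = 0.000408). The SUIT2 libraries were at 4.26, 3.79 and 3.13 CPM with THZ1 and at 2.43, 3.17 and 3.54 CPM with DMSO. Those ranges overlapped, the log2 fold change of 0.28 had a 95% interval of -0.18 to 0.74 (edgeR adjusted p = 0.466), and a change of the size seen in BxPC3 lies outside that interval.

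BCL2A1, a family member known from blood and melanocytic cells, was close to absent. It had 15 counts over all 18 libraries, at most 3 in any library. The group totals were 4 with THZ1 and 7 with DMSO in BxPC3, and 1 and 3 in Panc327. SUIT2 had 0 counts in both groups, which allows a level of up to 0.12 CPM with THZ1 and 0.118 CPM with DMSO, taking 3 counts over the group as the limit, for counting error only. No fold change is given at this depth.

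Per kilobase of exon, the levels of family members can be compared with each other, with the length of all annotated exons of a gene as the divisor. MCL1 led in BxPC3, with 69.5 ± 4.43 CPM per kb with THZ1 and 91.9 ± 1.01 with DMSO (SD, n = 3), and in Panc327, with 40.6 ± 0.312 and 65.5 ± 1.04. In SUIT2 it was BCL2L1 that led, with 94.3 ± 4.01 CPM per kb with THZ1 and 95.9 ± 2.88 with DMSO, over MCL1 with 72.2 ± 2.05 and 63.9 ± 1.87. The leading place did not depend on the length used, since it was the same with the longest transcript of each gene. Of the summed CPM per kb of the 5 family members, MCL1 made up 64.6% with THZ1 and 67.2% with DMSO in BxPC3, 62.4% and 64.8% in Panc327, and 41.8% and 38.0% in SUIT2. BCL2L1 made up 28.0% and 22.2% in BxPC3, 17.6% and 17.9% in Panc327, and 54.6% and 57.0% in SUIT2. Its divisor includes the 43.0% of exon bases shared with ABALON, where the assignment of reads is not known. BCL2L2 held 6.94% and 9.98% in BxPC3, 19.1% and 16.4% in Panc327, and 3.44% and 4.89% in SUIT2, and BCL2 with BCL2A1 made up the small rest. The divisor of BCL2L2 likewise includes exon bases shared with BCL2L2-PABPN1 and PPP1R3E.

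**Figure D3:**
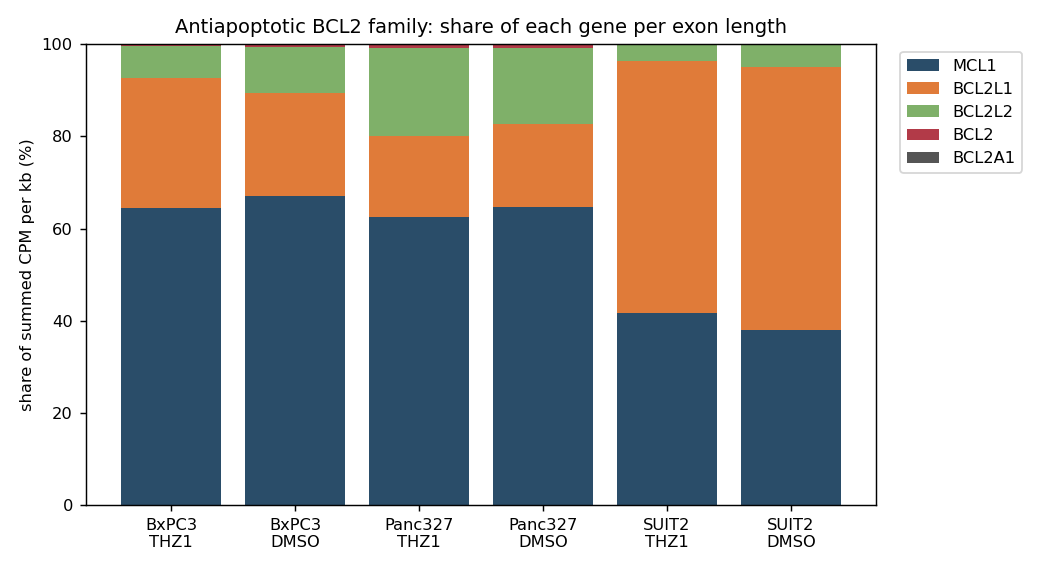
Share of each antiapoptotic BCL2 family gene in the summed CPM per kb of exon, in percent, by group (mean of 3 libraries, no error drawn). MCL1 is the largest part in BxPC3 and Panc327 with either treatment, and BCL2L1 is the largest part in SUIT2, with 54.6% with THZ1 and 57.0% with DMSO.

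Of the IAP genes, XIAP fell in BxPC3 and SUIT2. It encodes the inhibitor that binds caspases directly and lies on chromosome X at 123859724 to 123913979 on the plus strand. In BxPC3 it was at 68.1, 70.2 and 62.5 CPM with THZ1 and at 102, 95.8 and 101 CPM with DMSO, with no overlap (log2 fold change -0.58, SE 0.07, edgeR adjusted p = 2.71e-12). In SUIT2 it was at 55.5, 66.7 and 64.7 CPM with THZ1 and at 82.5, 68.5 and 71.4 CPM with DMSO. The gap between those groups was narrow, with a log2 fold change of -0.25 (SE 0.07, edgeR adjusted p = 0.00518). The call was lost without THZ1 replicate 1 (-0.18) or without DMSO replicate 1 (-0.17). The Panc327 levels were 54.8, 58.1 and 59.8 CPM with THZ1 and 58.1, 65.5 and 55.5 CPM with DMSO. Those groups overlapped, and the log2 fold change of -0.05 had a 95% interval of -0.21 to 0.10; it was 0.06 under RLE scaling and with DESeq2, 0.01 without DMSO replicate 2, and -0.38 and called with library size alone.

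BIRC2 rose in BxPC3, and in Panc327 with a direction that turned under library size alone. It encodes cIAP1, a ubiquitin ligase bound to TRAF2 that modifies RIPK1 and restrains the noncanonical NF-kB pathway. In BxPC3 it was at 84.8, 79.0 and 83.7 CPM with THZ1 and at 61.0, 55.2 and 55.2 CPM with DMSO. All THZ1 libraries were higher, and the log2 fold change was 0.53 (SE 0.07, edgeR adjusted p = 1.5e-11), or 0.14 and not called with library size as the only scaling, which was 0.49 over the median gene of that setting. In Panc327 it was at 49.3, 56.5 and 61.6 CPM with THZ1 and at 48.9, 50.5 and 48.4 CPM with DMSO. The ranges overlapped, and the call of a rise there was fragile (log2 fold change 0.17, SE 0.07, edgeR adjusted p = 0.029): it was 0.12 and not called without the filter on low counts, -0.15 and not called with library size alone (0.19 over its median gene), and 0.16 without DMSO replicate 1, 0.16 without DMSO replicate 3, 0.16 without THZ1 replicate 2 and 0.10 without THZ1 replicate 3, none of them called. In SUIT2 it was at 88.2, 95 and 87.0 CPM with THZ1 and at 88.0, 86.2 and 90.8 CPM with DMSO, with no call (log2 fold change 0.02, 95% interval -0.09 to 0.14, -0.01 without THZ1 replicate 2).

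BIRC3 fell in all 3 lines. It encodes cIAP2, a close relative of cIAP1, and is a known target gene of NF-kB. In SUIT2, where it was most abundant, it was at 39.1, 42.1 and 39.1 CPM with THZ1 and at 55.2, 54.7 and 55.8 CPM with DMSO. The groups were apart (log2 fold change -0.46, SE 0.07, edgeR adjusted p = 1.64e-06), at percentile 7.91 of all tested genes in that line. In BxPC3 it was at 4.98, 4.42 and 4.49 CPM with THZ1 and at 7.06, 7.01 and 7.86 CPM with DMSO, again with no overlap (log2 fold change -0.66, SE 0.19, edgeR adjusted p = 0.00125). In Panc327 the libraries held 6 to 31 counts, at 1.22, 2.48 and 1.18 CPM with THZ1 and at 3.10, 3.32 and 2.29 CPM with DMSO. The ranges overlapped there, the log2 fold change was -0.86 (SE 0.31, edgeR adjusted p = 0.00969), and the call was lost without THZ1 replicate 1 (-0.67) or THZ1 replicate 3 (-0.69).

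BIRC2 and BIRC3 are neighbours on chromosome 11, both on the plus strand, with BIRC3 at 102317450 to 102339403 and BIRC2 at 102347211 to 102378670, a gap of 7.8 kb. Their counts moved apart within libraries, in a comparison chosen after the values were seen. The log2 ratio of BIRC3 to BIRC2 in BxPC3 was -4.09, -4.16 and -4.22 with THZ1 and -3.11, -2.98 and -2.81 with DMSO. In Panc327 it was -5.34, -4.51 and -5.70 with THZ1 and -3.98, -3.93 and -4.40 with DMSO, and in SUIT2 it was -1.18, -1.17 and -1.15 with THZ1 and -0.67, -0.66 and -0.70 with DMSO. In each line all THZ1 ratios were under all DMSO ratios, by 1.19, 1.08 and 0.49 on average in that order, with an exact 2-sided permutation p of 0.1 each.

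CFLAR fell in BxPC3. It encodes the long and short forms of FLIP, which keep caspase-8 from being activated, and the counts pool these forms. The gene lies on chromosome 2 at 201116104 to 201176687 on the plus strand. In BxPC3 it was at 26.3, 25.6 and 26.9 CPM with THZ1 and at 33.5, 37.5 and 31.4 CPM with DMSO, with no overlap (log2 fold change -0.38, SE 0.09, edgeR adjusted p = 0.000183). In Panc327 it was at 29.5, 32.7 and 34.9 CPM with THZ1 and at 26.9, 29.3 and 30.4 CPM with DMSO. The groups overlapped, and the log2 fold change of 0.16 (SE 0.09, edgeR adjusted p = 0.113) was called with RLE scaling (0.28), with DESeq2 (0.28) and without THZ1 replicate 1 (0.23), and was -0.17 and not called with library size alone. SUIT2 had 82.4, 92.7 and 97.5 CPM with THZ1 and 98.1, 99.9 and 101 CPM with DMSO. All THZ1 libraries were lower, yet the log2 fold change of -0.13 (SE 0.06, edgeR adjusted p = 0.12) missed the threshold, and without THZ1 replicate 3 it was -0.19 and called.

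**Figure D4:**
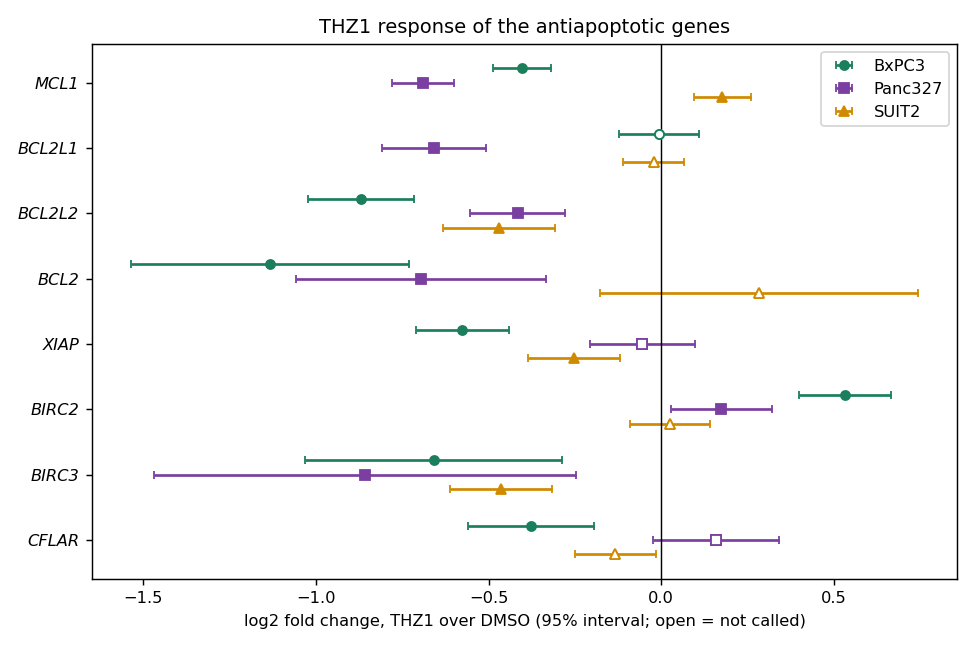
Log2 fold change of each tested member, THZ1 over DMSO, with its 95% interval, in BxPC3 (green circles), Panc327 (purple squares) and SUIT2 (yellow triangles). Filled symbols were called and open ones were not. BCL2L2 and BIRC3 lie left of 0 in every line, MCL1 lies left of 0 in BxPC3 and Panc327 and right of it in SUIT2 (0.18), and BIRC2 is furthest right in BxPC3 (0.53, or 0.14 and not called with library size alone).

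The lines were then compared in their response, as the difference of their log2 fold changes tested in the same fit. Differences were called for 6 of 8 members between BxPC3 and Panc327, where 36.3% of all genes were called, for 5 of 8 between BxPC3 and SUIT2, against 54.9%, and for 4 of 8 between Panc327 and SUIT2, against 60.7%. Any 2 of these differences share the libraries of 1 line. The MCL1 response was lower than that of SUIT2 by 0.58 in BxPC3 (SE 0.06, edgeR adjusted p = 1.01e-14) and by 0.87 in Panc327 (SE 0.06, edgeR adjusted p = 1.05e-22), and BxPC3 exceeded Panc327 by 0.29. The BCL2L1 response of Panc327 stood apart from both others, with differences of 0.65 for BxPC3 minus Panc327 and -0.64 for Panc327 minus SUIT2, while BxPC3 and SUIT2 differed by 0.01 with a 95% interval of -0.13 to 0.16. With library size alone, the median of all genes stood at -0.35 for BxPC3 minus SUIT2 and at -0.32 for Panc327 minus SUIT2. In that setting the BCL2L1 difference between BxPC3 and SUIT2 was -0.36 and called, and -0.01 over the median gene. The BCL2L2 response was lowest in BxPC3, by 0.45 against Panc327 and by 0.40 against SUIT2. Panc327 and SUIT2 were not called different for BCL2L2 (0.05, 95% interval -0.16 to 0.27). With library size alone the difference was -0.26 and called, and 0.06 over the median gene of that setting.

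For BCL2 the response in BxPC3 and in Panc327 was lower than in SUIT2, by 1.42 (SE 0.31) and 0.98 (SE 0.30). XIAP responded more negatively in BxPC3 than in Panc327 (difference -0.52, SE 0.10) and SUIT2 (-0.32, SE 0.10). The BIRC2 response was higher in BxPC3 than in Panc327 by 0.36 (SE 0.10) and than in SUIT2 by 0.51 (SE 0.09). These BIRC2 calls were lost in other settings, at 0.22 for BxPC3 minus Panc327 when only those lines were fitted. For BxPC3 minus SUIT2 the BIRC2 difference was 0.13 with library size alone, or 0.48 over the median gene of that setting. CFLAR differed between BxPC3 and Panc327 (-0.54, SE 0.13, edgeR adjusted p = 0.000506) and between Panc327 and SUIT2 (0.29, SE 0.11, edgeR adjusted p = 0.0164). The second of these calls was lost without the filter on low counts (0.24) and without SUIT2 THZ1 replicate 1 (0.22). It was also lost without Panc327 DMSO replicate 1 (0.24) and without Panc327 THZ1 replicate 3 (0.24). With library size alone that CFLAR difference was -0.02, or 0.30 over the median gene of that setting. With TMM scaling BIRC3 showed no called difference between any lines, with 95% intervals of -0.53 to 0.93 for BxPC3 minus Panc327, -0.60 to 0.21 for BxPC3 minus SUIT2 and -1.03 to 0.24 for Panc327 minus SUIT2. With library size alone the BIRC3 difference was -0.57 for BxPC3 minus SUIT2 and -0.70 for Panc327 minus SUIT2, both called. Over the median gene of that setting these were -0.22 and -0.38.

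With DMSO alone the lines differed widely in these genes, as in most others. Differences in level were called for 7 of 8 members between BxPC3 and Panc327, where 79.3% of all genes were called, for 8 of 8 between BxPC3 and SUIT2, against 78.6%, and for 7 of 8 between Panc327 and SUIT2, against 82.5%. SUIT2 held the most BCL2L1, BIRC2, BIRC3 and CFLAR and the least BCL2 and BCL2L2. BIRC3 had the widest range of the tested members, with 7.31 ± 0.475 CPM in BxPC3, 2.91 ± 0.543 CPM in Panc327 and 55.3 ± 0.549 CPM in SUIT2 (SD, n = 3). The log2 difference was 1.33 (SE 0.18) for BxPC3 minus Panc327, -2.91 (SE 0.10) for BxPC3 minus SUIT2 and -4.24 (SE 0.12) for Panc327 minus SUIT2. BCL2L1 ran in the same order, with log2 differences of 0.74, -1.66 and -2.41, and so did CFLAR, with 0.24, -1.54 and -1.78, although the first CFLAR difference was 0.17 and not called without BxPC3 DMSO replicate 2. BIRC2 differed by 0.21, -0.63 and -0.84.

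MCL1 with DMSO was highest in BxPC3, by 0.49 (SE 0.04) over Panc327 and by 0.53 (SE 0.04) over SUIT2 on the log2 scale. Panc327 and SUIT2 did not differ beyond their spread in MCL1 (0.04, 95% interval -0.05 to 0.12). XIAP was also highest in BxPC3 (0.74 over Panc327 and 0.43 over SUIT2) and lowest in Panc327 (-0.31 for Panc327 minus SUIT2). BCL2 was higher in BxPC3 than in SUIT2 by 1.47 (SE 0.19) and higher in Panc327 than in SUIT2 by 1.65 (SE 0.18), while BxPC3 and Panc327 were not called different (-0.18, 95% interval -0.47 to 0.11). BCL2L2 was highest in Panc327, with -0.28 for BxPC3 minus Panc327, 0.73 for BxPC3 minus SUIT2 and 1.01 for Panc327 minus SUIT2.

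SUIT2 was on top and Panc327 lowest in DMSO level for BIRC3, BCL2L1, CFLAR and, over a narrower range, BIRC2. Promoter sequences are shown for the first 3 of these, whose ranges were widest, and for BIRC2, the neighbour of BIRC3. Each is 300 bases from RefSeq (GRCh38.p14), 250 before and 50 from the annotated start, 5' to 3' on the strand of the gene. Of the 9 members, 7 were matched in that table. Both strands were searched for 3 motifs, and matches are in capitals. The first is TATAAA, the core promoter box near many start sites. Another is the cyclic AMP response element, TGACGTCA. The last is a form of the kappaB site bound by NF-kB, with GGG at its start, any 3 bases between, and TTCC at its end. No match overlapped another. The motifs were chosen after the members' values were seen. Of all 35116 promoters in the table, 11.5% held TATAAA, 6.52% held the kappaB form and 1.85% held the cyclic AMP response element. A match at any position in the 300 bases counted. BIRC3, chr11:102317234-102317533 on the plus strand, has a kappaB form that begins 199 bases before the start. CFLAR, chr2:201118466-201118765 on the plus strand, has a kappaB form 97 bases before the start annotated for that window. The CFLAR window lies wholly inside the gene model, which begins at 201116104, so this form is not upstream of the gene. The windows of BIRC3, BIRC2 and BCL2L1 each include the first base of their gene model. BCL2L1, chr20:31723914-31724213 on the minus strand, has TATAAA at 208 and 125 bases before the start, and no match closer to it. BIRC2, chr11:102346964-102347263 on the plus strand, has a cyclic AMP response element 7 bases before the start.
BIRC3: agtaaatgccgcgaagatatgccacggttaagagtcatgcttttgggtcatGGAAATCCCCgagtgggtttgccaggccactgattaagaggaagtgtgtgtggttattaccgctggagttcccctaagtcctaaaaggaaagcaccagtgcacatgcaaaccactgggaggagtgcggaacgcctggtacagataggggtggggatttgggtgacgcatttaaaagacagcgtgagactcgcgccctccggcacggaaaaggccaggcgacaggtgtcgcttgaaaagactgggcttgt
CFLAR: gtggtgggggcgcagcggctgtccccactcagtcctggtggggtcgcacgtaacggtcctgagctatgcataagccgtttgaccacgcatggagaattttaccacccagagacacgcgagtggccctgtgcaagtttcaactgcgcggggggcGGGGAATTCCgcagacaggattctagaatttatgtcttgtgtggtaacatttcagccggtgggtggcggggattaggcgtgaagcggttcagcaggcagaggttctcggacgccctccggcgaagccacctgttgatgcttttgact
BCL2L1: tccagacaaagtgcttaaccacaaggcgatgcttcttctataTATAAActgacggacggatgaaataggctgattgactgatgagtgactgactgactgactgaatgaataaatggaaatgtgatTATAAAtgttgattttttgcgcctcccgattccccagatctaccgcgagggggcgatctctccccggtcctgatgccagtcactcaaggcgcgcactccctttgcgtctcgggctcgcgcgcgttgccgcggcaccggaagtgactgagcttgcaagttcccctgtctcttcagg
BIRC2: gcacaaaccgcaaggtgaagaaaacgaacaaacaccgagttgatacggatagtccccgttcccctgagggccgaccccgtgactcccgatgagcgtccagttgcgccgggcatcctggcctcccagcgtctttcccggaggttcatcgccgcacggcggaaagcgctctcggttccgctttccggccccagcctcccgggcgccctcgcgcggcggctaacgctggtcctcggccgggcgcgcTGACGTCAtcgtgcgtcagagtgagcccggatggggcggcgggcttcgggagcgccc
These matches describe letters in a window, and no binding was measured here. BIRC2 has 40 CG pairs in its window, against 15 in that of BIRC3, 21 in that of CFLAR, 20 in that of BCL2L1 and a median of 14 over all promoters.

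The members also differ in the shape of their RNA. In the 3' untranslated region of the longest coding transcript (GENCODE 29), the letters ATTTA, the core of the AU-rich element that marks short-lived messages, stand 10 times in MCL1, 13 in BCL2, 3 in BCL2L1, 5 in BCL2L2, 20 in XIAP, 3 in BIRC2, 5 in BIRC3, 23 in CFLAR and 0 in BCL2A1. Per kilobase, BIRC3 with 7.91 and BIRC2 with 6.25 stood above 91.3% and 88.7% of 12673 genes. Genes without a density, all but 11840, count there as not lower, so the ranks among genes with a density are higher. Over 11840 genes, the rank correlation of this density with the log2 fold change was -0.011 in BxPC3, -0.07 in Panc327 and 0.024 in SUIT2, a description across genes, which are not independent replicates.

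**Figure D5:**
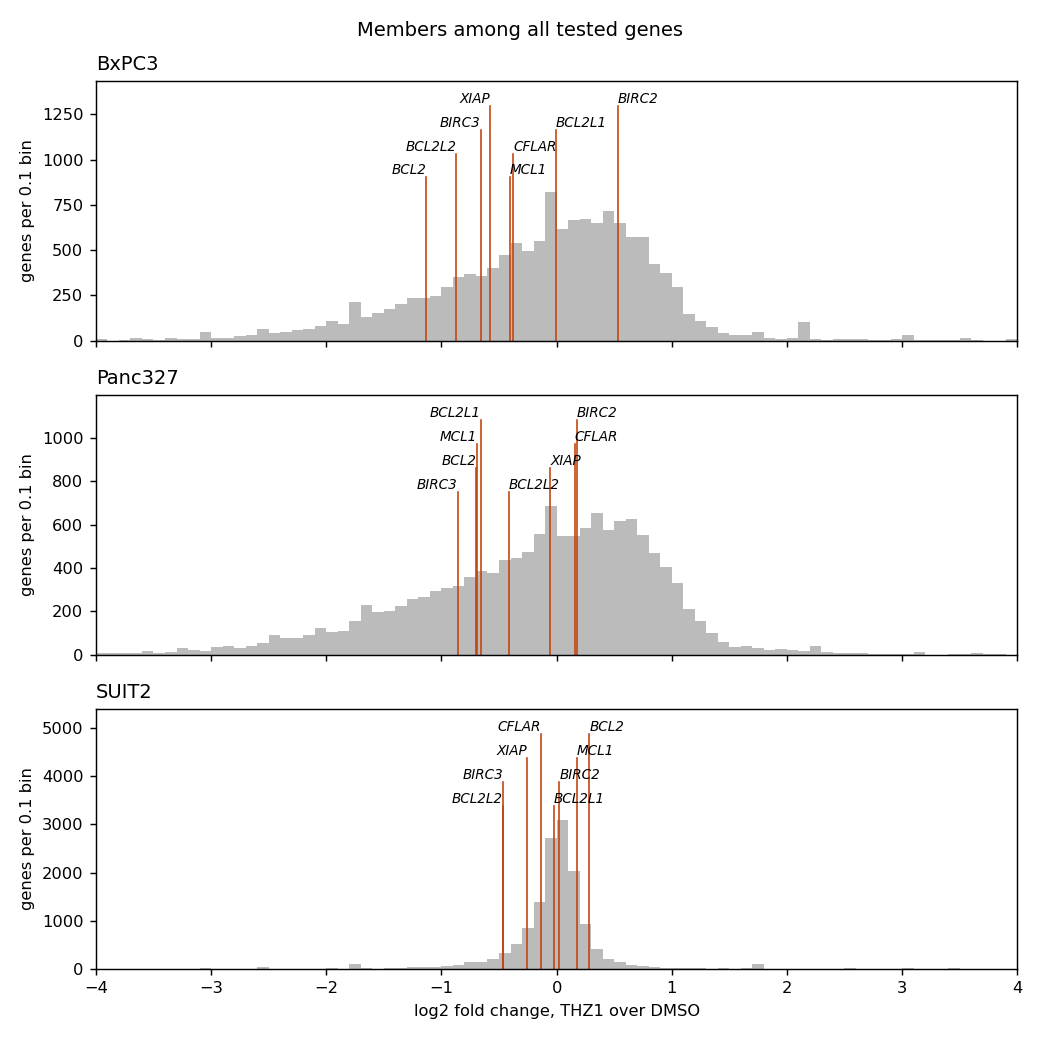
Log2 fold change of all 14011 tested genes, THZ1 over DMSO, in bins of 0.1, for BxPC3, Panc327 and SUIT2 (grey, genes per bin, with the few genes beyond the axis not drawn). Orange lines mark the tested members, whose height carries no value. The members lie inside the wide spread of BxPC3 and Panc327, while in SUIT2 the spread is narrow and BCL2L2 and BIRC3 lie at its lower side (percentiles 7.78 and 7.91).

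The proapoptotic partners moved in both directions, as did the tested genes at large. Of all tested genes, 35.2% were called higher and 34.1% lower in BxPC3, 35.6% and 37.8% in Panc327, and 6.95% and 7.64% in SUIT2. These shares are the background for each list of genes from here on. Of 10 tested BH3-only and effector genes, 5 rose and 3 fell in BxPC3, 5 rose and 4 fell in Panc327, and 1 rose and 0 fell in SUIT2, with median log2 fold changes of 0.156, -0.194 and 0.121. With library size alone the median in BxPC3 was -0.240, and 2 genes rose and 5 fell there, and without the filter on low counts it was -0.163. In Panc327 the median ran from -0.930 without the filter to 0.485 with that line fitted alone, so both medians turned sign among these settings. PMAIP1, which encodes the MCL1 binder NOXA, rose by 0.95 (SE 0.08) in BxPC3 and 0.95 (SE 0.15) in Panc327. BCL2L11, the gene of BIM, rose by 0.92 (SE 0.10) and 0.89 (SE 0.09) in the same lines. BMF, another BH3-only gene, fell by 1.81 (SE 0.23) in BxPC3 and by 2.64 (SE 0.30) in Panc327. BOK, an effector relative of BAX, fell by 0.72 in BxPC3 and by 0.87 in Panc327, and BAK1, the gene of BAK, fell by 0.71 and by 0.99 in the same lines. BAD, a BH3-only gene, rose in all lines, by 0.44 (SE 0.07) in BxPC3, 0.56 (SE 0.09) in Panc327 and 0.32 (SE 0.09) in SUIT2, the BxPC3 value being 0.05 and uncalled with library size alone.

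Genes for the ligases and other enzymes that set the stability of MCL1 protein showed 3 rises and 2 falls of 6 in BxPC3 and in Panc327, and 1 of each in SUIT2, with medians of 0.132, 0.191 and 0.163. With library size alone the medians in BxPC3 and Panc327 were -0.264 and -0.135, and 1 gene rose and 3 fell in each. FBXW7, which marks MCL1 for destruction, rose by 1.05 (SE 0.10) in BxPC3 and 1.12 (SE 0.09) in Panc327. USP9X, which removes ubiquitin from MCL1, fell by 0.21 (SE 0.06) and by 0.27 (SE 0.06). CDC20, an activator of the anaphase-promoting complex, fell in all lines, by 0.42, 0.67 and 0.26. MARCH5, a mitochondrial ligase, rose by 0.50 in BxPC3 and 0.21 in SUIT2, calls that were both lost with library size alone (0.10 and 0.20), the SUIT2 call also without the filter (0.21), with DESeq2 (0.21) and with SUIT2 fitted alone (0.20). BTRC, part of another ligase, rose by 0.35 in BxPC3 and 0.25 in Panc327, or stood at -0.04 and -0.07 and uncalled with library size alone.

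Around the IAP genes, 1 of 6 tested antagonists and other BIRC genes rose in BxPC3 and 4 fell, with 1 and 2 in Panc327 and 0 and 1 in SUIT2 (medians -0.855, -0.338 and -0.185). The BxPC3 median was -0.431 with that line fitted alone and -1.358 without the filter, and the Panc327 median ran from -0.659 with library size alone to -0.216 with DESeq2. BIRC5, the gene of survivin, rose by 0.69 (SE 0.06) in BxPC3 and 0.38 (SE 0.05) in Panc327, the Panc327 value being 0.05 and uncalled with library size alone. HTRA2, a mitochondrial protease that binds IAP proteins, fell by 1.33, 0.72 and 0.29 in BxPC3, Panc327 and SUIT2, the SUIT2 call being lost with DESeq2 (-0.30). DIABLO, the gene of the IAP antagonist SMAC, fell by 0.38 in BxPC3 and by 0.50 in Panc327, and XAF1, which encodes a XIAP-associated factor, fell by 1.53 (SE 0.32) in BxPC3. Of 9 genes of caspases and the apoptosome, 1 rose and 6 fell in BxPC3, 2 rose and 6 fell in Panc327, and 0 rose and 1 fell in SUIT2 (medians -0.371, -0.641 and -0.008). The medians in BxPC3 and Panc327 were -0.767 and -0.966 with library size alone. APAF1, the scaffold of the apoptosome, fell by 1.25 in BxPC3 and by 0.66 in Panc327. CASP8, which FLIP holds back, fell in all lines, by 0.66 in BxPC3, 1.49 in Panc327 and 0.35 in SUIT2. CYCS, the gene of cytochrome c, rose by 0.46 in BxPC3 and 0.42 in Panc327, and CASP6 rose by 0.36 in Panc327. With library size alone these values were 0.07, 0.09 and 0.04, none of them called, and CASP6 was 0.31 and uncalled without the filter.

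Genes of the death receptors and their adaptors, the setting in which CFLAR, BIRC2 and BIRC3 act, mostly fell in BxPC3 and Panc327. Of 12 tested, 1 rose and 9 fell in BxPC3, 0 rose and 11 fell in Panc327, and 0 rose and 2 fell in SUIT2 (medians -0.596, -0.835 and 0.042). The BxPC3 median was -0.992 with library size alone. FADD, the adaptor that recruits caspase-8 and FLIP, fell by 3.26 (SE 0.12) in BxPC3, fell by 3.03 (SE 0.17) in Panc327 and fell by 0.39 (SE 0.07) in SUIT2. TNFRSF1A, the TNF receptor, fell by 1.84 (SE 0.07) in BxPC3 and fell by 3.51 (SE 0.10) in Panc327. TRAF1 fell by 2.40 (SE 0.18) in BxPC3 and by 1.05 (SE 0.28) in Panc327, and TRAF2 fell in all lines, by 1.06, 1.20 and 0.27 in BxPC3, Panc327 and SUIT2. CYLD, a deubiquitinase, rose by 0.24 in BxPC3, or stood at -0.15 and uncalled with library size alone, at 0.21 and uncalled without the filter and at 0.19 and uncalled with BxPC3 fitted alone. Of 8 NF-kB subunits and inhibitors, 2 rose and 6 fell in BxPC3 and in Panc327 and 0 changed by the test in SUIT2 (medians -0.556, -1.117 and -0.005). Scaled by library size alone, the BxPC3 median was -0.952, and in Panc327 0 of them rose and 7 fell. RELB, a subunit of the noncanonical pathway, fell by 2.02 (SE 0.14) in BxPC3 and by 1.27 (SE 0.17) in Panc327. The inhibitors NFKBIE and NFKBIA fell by 1.54 and 0.32 in BxPC3 and by 1.57 and 1.40 in Panc327. NFKB1 rose by 0.58 and NFKBIB by 0.74 in BxPC3, and by 0.20 and 0.36 in Panc327. With library size alone the Panc327 values were -0.13, called lower, for NFKB1 and 0.03, uncalled, for NFKBIB, and without the filter NFKB1 was 0.14 and uncalled. In SUIT2, 1 of these 8 genes was lower at an unadjusted p under 0.05 in edgeR's quasi-likelihood test, and DESeq2 and limma voom each called 0. Every other direction given above as 0 for a list with TMM scaling also had 0 genes at an unadjusted p under 0.05 and 0 called by DESeq2 or limma voom. Counts and medians of these lists stand beside the same backgrounds as those of the members, and no test of a list was made.

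The genes most like each member over the 18 libraries were found by Pearson's r of log2(CPM + 1), among tested genes whose mean level reached 5 CPM. The libraries fall into 6 groups, so these values describe mostly line and treatment. They were USP8 (0.979) and ZBTB5 (0.977) for MCL1, TGFBR2 (0.991) and CCNG1 (0.989) for BCL2L1, B4GALT6 (0.972) and LINC00641 (0.962) for BCL2L2, and CLCN2 (0.962) and SLC35E1 (0.943) for BCL2. For the other members they were ARHGEF10 (0.943) and CYP1B1 (0.930) for XIAP, EIF1AX (0.965) and LTBP1 (0.964) for BIRC2, FGFRL1 (0.991) and SYNE1 (0.990) for BIRC3, and HNF4A (0.988) and TNFRSF11B (0.987) for CFLAR.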

How the data were processed

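Each of the 18 libraries has 1 deposited file of unnormalised counts by gene symbol. Per the submitters' processing notes, the authors made these counts from TruSeq RNA v2 libraries using bcl2fastq (1.8.4), HTSeq (0.6.1) and TopHat2 (2.1.0), genome build hg38. What annotation, strand setting and counting mode were used is not given in the sources used here. The 5 summary entries of the counting tool held 21.3% to 64.6% of records and were left out.

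The counts went into edgeR 4.0.16 under R 4.3.3: filterByExpr (minimum count 10, minimum total 15) left 14011 genes, libraries were scaled by TMM, and 6 group means (12 residual degrees of freedom) were fitted with the robust quasi-likelihood method. Benjamini-Hochberg adjusted p under 0.05 over all genes tested made a call. As an approximate SE, the size of each log2 fold change was divided by the root of its F statistic. TMM scaling sets directions relative to the bulk of genes, and total RNA per cell is not measured. Alternatives used limma 3.58.1 and DESeq2 1.42.0 among others. Sequences and plots were handled in Python 3.11.15 (numpy 2.4.6, pandas 2.3.3, matplotlib 3.10.9). Of the fits, only that of edgeR was run on simulated counts, simpler than these data, with no outcome given here.

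The members and gene lists were chosen with earlier results of these data known. Text names all 9 members, and from each other list up to 2 genes per direction and THZ1 contrast with the largest change, if called and if 1 of the groups averaged 5 CPM or more. Some genes that this rule selects are not reported here. Gene models are from GENCODE 29 (GRCh38), to which 23900 of 26485 symbols matched, and promoters from RefSeq (GRCh38.p14). Replicate pairs differed by more than sampling noise (chi-square per degree of freedom 1.27 to 2.67), so each library counts as 1.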

Additional observations from a re-analysis of the deposited data

Results flagged for a closer look

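A difference between lines in the THZ1 response passed edgeR's quasi-likelihood test for 15 pairs of a member and a line contrast. For BxPC3 minus Panc327 these were MCL1 (0.29), BCL2L1 (0.65), BCL2L2 (-0.45), XIAP (-0.52), BIRC2 (0.36) and CFLAR (-0.54), with adjusted p of 9.34e-05, 2.28e-08, 0.000256, 1.73e-05, 0.00226 and 0.000506 in edgeR. For BxPC3 minus SUIT2 they were MCL1 (-0.58), BCL2 (-1.42), BCL2L2 (-0.40), XIAP (-0.32) and BIRC2 (0.51), with adjusted p of 1.01e-14, 5.12e-05, 0.00167, 0.00274 and 5.47e-07 in edgeR. For Panc327 minus SUIT2 they were MCL1 (-0.87), BCL2 (-0.98), BCL2L1 (-0.64) and CFLAR (0.29), with adjusted p of 1.05e-22, 0.0028, 9.96e-10 and 0.0164 in edgeR. All values are differences of log2 fold changes, THZ1 over DMSO, first line minus second. Of all tested genes, 36.3%, 54.9% and 60.7% were called different in these contrasts.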

How the results depend on the processing

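Of 72 values of a member in a contrast, 72 kept their direction and their side of the threshold with limma voom and 72 with a replicate block. With the block, members called higher and lower came to 1 and 6 in BxPC3 and 1 and 5 in Panc327. They came to 1 and 3 in SUIT2, and all these counts were as without the block. Pairing by replicate number cannot change the mean shift of the log2 ratio of MCL1 to BCL2L1, by arithmetic. That shift, -0.40, -0.03 and 0.20 in BxPC3, Panc327 and SUIT2, is therefore no check of the block. The replicate numbers do not pair the libraries by their deviations from the group means: same-numbered libraries correlated at 0.026, -0.004 and -0.027 in BxPC3, 0.042, 0.019 and 0.029 in Panc327, and -0.206, -0.081 and -0.019 in SUIT2. Library size alone left 57 of 72 values on their side, RLE and DESeq2 67 each, no filter 68 and only the lines compared 71; over the 18 left-out libraries, 1266 of 1296 values stayed. Members called higher in BxPC3 came to 0 with library size alone. In Panc327 they came to 2 with RLE or DESeq2, 0 with library size alone or no filter, and 0 to 2 when 1 library was left out. The cause was not tested in any of these cases beyond the fewer libraries and the scaling itself.

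These directions turned. BCL2L1 in BxPC3 was 0.033 with RLE and DESeq2 and -0.080 to 0.034 with single libraries left out. XIAP in Panc327 was 0.063 with RLE, 0.064 with DESeq2 and at most 0.0084 with single libraries left out. BIRC2 and CFLAR in Panc327 were -0.15 and -0.17 with library size alone. With single libraries left out, BCL2L1 in SUIT2 was -0.060 to 0.0015 and BIRC2 -0.014 to 0.047. For BxPC3 minus SUIT2, the BCL2L1 difference was -0.36 with library size alone, -0.013 without the filter and -0.056 to 0.058 with single libraries left out. With library size alone, Panc327 minus SUIT2 was -0.26 for BCL2L2, -0.11 for XIAP, -0.16 for BIRC2 and -0.017 for CFLAR, and the DMSO level of MCL1 for Panc327 minus SUIT2 was -0.0030. Differences not called before were called for XIAP (0.32) and BIRC2 (0.27) in Panc327 minus SUIT2 with RLE or DESeq2, for BIRC3 (-0.57) and CFLAR (-0.62) in BxPC3 minus SUIT2 with library size alone, and for CFLAR (-0.27) in BxPC3 minus SUIT2 without the filter. Library size alone also gave a call for BIRC3 (-0.70) in Panc327 minus SUIT2. The library-size differences are not centred on the median gene, which stood at -0.35 for BxPC3 minus SUIT2 and -0.32 for Panc327 minus SUIT2. The share of calls that were higher was 50.8%, 22.8% and 28.1% for the BxPC3 minus Panc327, BxPC3 minus SUIT2 and Panc327 minus SUIT2 responses with library size alone, against 61.1%, 49.7% and 46.7% with TMM, and for BxPC3 minus Panc327 it was 49.6% with RLE and 40.8% with only those lines fitted. Of 54 places in the order of members by level per kilobase, 45 were the same with the longest transcript as length. The depth limits BCL2, BIRC3 in Panc327 and BCL2A1 most, and isoforms, protein levels and total RNA per cell were not measured.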
